A study of Mus musculus with 15 samples.

Results

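The 8 genes described here are the retinoid receptors of the mouse with the enzyme and the carrier that stand upstream of them: Aldh1a1, Rara, Rarb, Rarg, Rxra, Rxrb, Rxrg and Crabp1. They were taken by symbol from a table of 35976 genes, and all 8 had a row. The genes on the list were chosen by a reading of earlier results on the counts of these same libraries, so the levels are given as a description, and the adjusted p-values are those of fits over the whole table, not independent evidence about these genes. RNA was sequenced from nuclei of the ventral tegmental area (VTA), the midbrain region whose dopamine neurons project to the nucleus accumbens and cortex, in male mice learning to work for food and then for cocaine.

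All groups came from heterozygous DAT-Cre mice (B6.SJL-Slc6a3tm1.1(cre)Bkmm/J), 8 to 12 weeks old, in which Cre is made under control of the dopamine transporter locus. Every mouse, the non-dopaminergic comparison included, carried the Cre-dependent virus AAV5-DIO-KASH-HA, expressed for 14 days, which puts an HA tag on the nuclear envelope of Cre-expressing cells. Tissue of 2 mice was pooled per sample, and sorting on HA gave a positive fraction, called dopaminergic, and a negative one, called non-dopaminergic. Dopaminergic nuclei were taken after 7 days of food training (n = 4), after cocaine maintenance (n = 3) and after abstinence (n = 4). Non-dopaminergic nuclei were taken after food training (n = 4). Maintenance mice also had 7 days of food training. They took cocaine at 0.3 mg/kg per infusion for 5 days and then at 1.0 mg/kg per infusion for 10 days, in sessions of 1 hour. Abstinence mice had the same history and then spent 21 days in the home cage without the drug. No group held non-dopaminergic nuclei of mice that had taken cocaine.

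Retinoic acid is made from vitamin A in successive oxidations, the last of them by retinaldehyde dehydrogenases such as ALDH1A1. It is carried in the cell by the binding proteins CRABP1, CRABP2 and FABP5, and it acts through the retinoic acid receptors RARα, RARβ and RARγ (Rara, Rarb, Rarg), which bind DNA as partners of the retinoid X receptors (Rxra, Rxrb, Rxrg). The pairs sit on direct repeats of a short hexamer, hold corepressors when empty and exchange them for coactivators when retinoic acid binds. In the midbrain ALDH1A1 also oxidises the aldehyde formed when dopamine is broken down, and it marks a subset of dopamine neurons. RXRs serve further nuclear receptors, among them NR4A2 (Nurr1), a transcription factor needed for dopamine neurons to form and to persist.

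Rarb is the textbook example of a retinoid receptor gene that is itself switched on by retinoic acid, through a repeat in its promoter, and its sequence is shown because the other 15 promoter windows of these 8 genes held no such repeat. Windows of 300 bases, from 250 before to 50 after each RefSeq start site (GRCm38.p6), were searched on both strands for direct repeats of a hexamer, spaced by 1, 2 or 5 bases. The hexamer could be AGGTCA as in the consensus, GGGTCA or AGTTCA with a single letter changed, or GGTTCA with both of those changes, in any pairing. The search matched 16 windows of the 8 genes, and 1 of them held a repeat. It lies on the minus strand from 53 to 37 bases before a Rarb start site, with a spacer of 5. Below are the 100 bases before that start, chr14:16575477-16575576, read 5′ to 3′ on the minus strand, with the repeat and its spacer in capitals.
Rarb promoter: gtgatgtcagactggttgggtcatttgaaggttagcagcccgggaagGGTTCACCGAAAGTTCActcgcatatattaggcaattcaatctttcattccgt
Among all 32851 windows of this length, 0.0974% held a repeat with a spacer of 5, 0.268% with a spacer of 2 and 0.222% with a spacer of 1. The match is a description of letters in a window and not a measured binding site.

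The libraries held 25813697 to 59046618 counts. Dopaminergic libraries detected 14841 to 19750 genes with at least 1 count and non-dopaminergic ones 22733 to 23886. The sorted fractions carried their markers: 7 of 8 dopamine neuron genes were higher in dopaminergic nuclei of food-trained mice, where all 11 HA-positive libraries summed to 5592 to 12300 CPM (counts scaled to the same total in each library, with TMM factors) and the HA-negative ones to 342 to 522 CPM. Oligodendrocyte markers summed to 1195 to 2888 CPM in dopaminergic and 10392 to 24977 CPM in non-dopaminergic libraries, with 8 of 12 called lower. For astrocytes the ranges were 1411 to 2264 and 2692 to 4806 CPM (5 of 10 called lower), and for microglia 530 to 1122 and 1880 to 3713 CPM (7 of 9 called lower). Vascular markers summed to 9.68 to 201 and 269 to 488 CPM, and oligodendrocyte precursor markers to 40.5 to 113 and 236 to 324 CPM, with 0 of 8 and 0 of 5 called. Markers of other neurons were present in both fractions, with 0 of 2 glutamate and 0 of 3 GABA markers called and unlike values within each list. After food training Gad1 (39.0 against 75.0 CPM) and Gad2 (61.5 against 85.5 CPM) were lower in every dopaminergic than in every non-dopaminergic library, and Slc17a7 averaged 20.3 against 75.0 CPM. Slc32a1 (93.8 against 55.1 CPM) and Slc17a6 (457 against 392 CPM) had higher means in dopaminergic nuclei, with overlapping ranges. No marker gene of these lists was at 0 in a whole group, and none passed the test between the stages. Samples of a group are separate pools of mice by their labels, and whether the p-values cover variation beyond these pools is not given.

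Aldh1a1 had the highest level per length of the 8 genes in every group and was the only one called higher in dopaminergic nuclei. Its level after food training was 197, 176, 249 and 181 CPM in the dopaminergic libraries and 78.4, 113, 71.6 and 57.6 CPM in the non-dopaminergic ones. The lowest dopaminergic library stood above the highest non-dopaminergic one. The means were 201 ± 33.8 and 80.1 ± 23.5 CPM (SD, n = 4 each), a ratio of 2.51, and the fitted difference was 1.34 on the log2 scale (SE 0.24, adjusted p = 0.0067 by edgeR's quasi-likelihood test). In all, 2 of the 7 genes with enough counts to be tested were called between the populations, Aldh1a1 higher and Rara lower, where 12.8% of the 19786 genes tested were called (3.63% higher and 9.17% lower). Ranges without overlap were found for the same 2 genes, against 26.1% of all genes (6.41% higher and 19.7% lower). In bulk nuclei, fewer cells that make a transcript and less RNA per cell cannot be told apart, and the part of the glial markers above in these differences was not tested.

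Across the cocaine schedule Aldh1a1 kept a high level with overlapping ranges. Maintenance libraries had 126, 347 and 255 CPM (243 ± 111, SD, n = 3), and abstinence libraries had 190.5, 112, 133 and 167 CPM (151 ± 34.8, n = 4). The range at maintenance took in that of food training and overlapped that of abstinence. The fitted differences were 0.27 (SE 0.32, adjusted p = 0.883) for maintenance minus food training, -0.42 (SE 0.30, adjusted p = 0.999974) for abstinence minus food training and -0.69 (SE 0.32, adjusted p = 0.508) for abstinence minus maintenance, all on the log2 scale by the same test. Ordered by mean, the groups ran from maintenance through food training and abstinence to non-dopaminergic nuclei. The place of maintenance above food training rests on replicate 2 (347 CPM), without which the fitted difference was negative. Over the alternative settings that difference ran from -0.45 to 0.59. Each stage overlapped its neighbour, and the lowest abstinence library, at 112 CPM, lay at the level of the highest non-dopaminergic one, at 113 CPM. Within food training and within maintenance, the highest Aldh1a1 library was also the one with the fewest counts in its group, with 25813697 counts in food-trained replicate 3 and 32032303 counts in maintenance replicate 2. At abstinence it was not. The part of depth in these values was not tested.

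A neighbouring gene limits what the Aldh1a1 counts can say. Aldh1a7, an aldehyde dehydrogenase that lies next to Aldh1a1 (chr19:20492715-20643465, plus strand, GRCm38) on the opposite strand, has a transcript 90.3% identical to it over 2011 aligned bases, so reads of the pair could be split between them. Aldh1a7 stood at 6.48, 0, 8.21 and 0.0873 CPM in food-trained dopaminergic libraries and at no more than 0.708 CPM in non-dopaminergic ones. It reached 1.66 CPM at most at maintenance and 0.766 to 7.87 CPM at abstinence. These levels are small beside those of Aldh1a1 in every library, and the difference between populations was not called (3.71 on the log2 scale, SE 2.07, adjusted p = 0.326). The other retinaldehyde dehydrogenases were close to absent from dopaminergic nuclei. Aldh1a2 had counts in 2 of the 11 dopaminergic libraries, 7.83 CPM in food-trained replicate 2 and 0.563 CPM in maintenance replicate 3, against 0.472 to 1.65 CPM in non-dopaminergic ones. Aldh1a3 had counts in 1 dopaminergic library, at 0.698 CPM, and in 1 non-dopaminergic library, at 1.33 CPM.

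**Figure D1:**
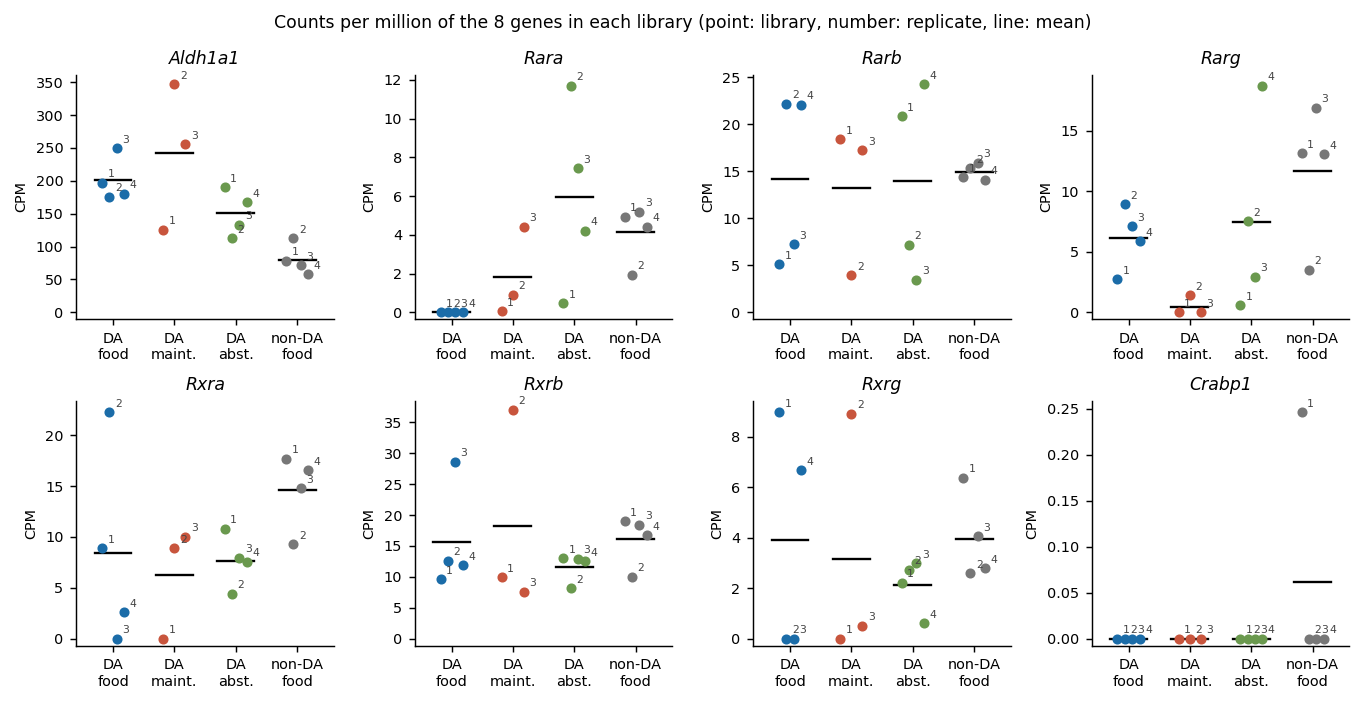
CPM (linear axis, TMM scaling over the 15 libraries) of the 8 genes in each library, by group: dopaminergic (DA) nuclei after food training, maintenance (maint.) and abstinence (abst.), and non-dopaminergic (non-DA) nuclei after food training. Each point is 1 library with its replicate number, and each horizontal line a group mean; Rara lies at 0 in all 4 food-trained dopaminergic libraries, and Aldh1a1 lies above 112 CPM in every dopaminergic library.

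Rara, which encodes RARα (chr11:98927818-98974942, plus strand), was not detected in the dopaminergic nuclei of food-trained mice. Its counts there were 0 in all 4 libraries, where 3 counts would be 0.0518 to 0.108 CPM. In non-dopaminergic libraries of the same stage it stood at 4.93, 1.94, 5.20 and 4.42 CPM, from 93 to 240 counts. Against a floor of 3 counts per library, averaged over the group, it was at least 53-fold lower in dopaminergic nuclei. That bound covers counting error only: 72.5% of genes near this level had at least 1 food-trained dopaminergic library at 0. Over the same 4 libraries Rxra ranged from 0 to 782 counts. The Rara difference was called (adjusted p = 0.0067 by edgeR's quasi-likelihood test). With no counts on the dopaminergic side, Rara entered this fit only through the non-dopaminergic libraries, so it had to differ to be tested at all, and its p is no support beyond the counts themselves. Of all genes tested, 5.56% shared this pattern of 0 in every dopaminergic library and counts in every non-dopaminergic one.

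After cocaine, Rara had counts in every dopaminergic library. At maintenance it stood at 0.0625, 0.909 and 4.43 CPM (3, 31 and 181 counts), and at abstinence at 0.482, 11.7, 7.45 and 4.21 CPM (22, 620, 410 and 176 counts). The values spread widely within each stage, and 2 abstinence libraries exceeded every non-dopaminergic one. The group means were at least 23.1-fold higher at maintenance and at least 76.6-fold higher at abstinence than the food-training floor. These bounds too cover counting error only. The maintenance bound rests on replicate 3, without which it was 6.25-fold, and replicate 1, with 3 counts, lay at the floor itself. Neither difference was called by edgeR's quasi-likelihood test after adjustment over all genes: the p-values were 0.00199 (adjusted p = 0.181) at maintenance and 0.000886 (adjusted p = 0.999974) at abstinence. Over the alternative settings the adjusted p ran from 0.000322 to 1 at maintenance and from 3.13e-06 to 1 at abstinence, and it passed the threshold in both comparisons with the DESeq2 test alone. Rara entered the stage fit only through the maintenance and abstinence libraries, so these p-values, the DESeq2 ones included, add no support to the counts. Being at 0 in all food-trained libraries and above 0 in all of the other stage was found for 0.173% of genes at maintenance and 0.383% at abstinence. Markers of other cells varied over the same stages. The 3 GABA neuron markers summed to 161 to 220 CPM after food training, 159 to 350.4 CPM at maintenance and 196 to 413 CPM at abstinence, and the 5 oligodendrocyte precursor markers to 40.5 to 94.6, 41.1 to 113 and 45.8 to 100.4 CPM. Among them Gad2 averaged 61.5, 123 and 91.7 CPM, Gad1 39.0, 88.7 and 71.1 CPM, and Pdgfra 3.83, 20.3 and 13.7 CPM. Gad2 and Pdgfra were higher in every maintenance than in every food-trained library, as for 4.31% of genes. Cspg4 also had a higher mean at maintenance (8.07 against 2.79 CPM after food training). The other markers of these lists had lower means at maintenance: Slc32a1 (65.1 against 93.8 CPM), Vcan (34.3 against 41.6 CPM), C1ql1 (9.02 against 18.2 CPM) and Gpr17 (1.36 against 6.82 CPM). None was called, and their part in the Rara values was not tested. Rara itself overlapped between abstinence and maintenance (1.71 on the log2 scale, SE 1.78, adjusted p = 0.958). The 2 comparisons with food training share the same 4 libraries at 0 and are not separate observations of that absence.

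Libraries at 0 were frequent among dopaminergic genes of this level. Of 2020 genes within 1.5 times the mean of Rara over the 15 libraries (2.03 to 4.57 CPM), 72.5% had at least 1 of the 4 food-trained dopaminergic libraries at 0, and 52 (2.57%), Rara among them, had all 4 at 0. In the non-dopaminergic libraries 1.24% of these genes had at least 1 of 4 at 0 and none had all 4. Of the 6 receptors, Rara, Rxra and Rxrg had a food-trained dopaminergic library at 0, and none had a non-dopaminergic one. Over the wider range of the 6 receptors (3.05 to 15.2 CPM), these shares were 44.0% and 0.339% of 4715 genes.

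Rarb (chr14:16430839-16819156, minus strand) had similar means in all 4 groups and a far wider spread in dopaminergic than in non-dopaminergic libraries. It measured 5.10, 22.2, 7.23 and 22.1 CPM after food training, 18.4, 3.96 and 17.2 CPM at maintenance and 20.8, 7.19, 3.47 and 24.2 CPM at abstinence. Non-dopaminergic libraries had 14.4, 15.3, 15.9 and 14.1 CPM. Dopaminergic libraries of each stage thus lay either at 7.23 CPM or below or at 17.2 CPM or above, and every non-dopaminergic library fell in the gap between. Group means were 14.1 ± 9.25, 13.2 ± 8.01, 13.9 ± 10.1 and 14.9 ± 0.845 CPM (SD). The coefficient of variation was 60.4% over the 11 dopaminergic libraries of 3 stages against 5.66% over the 4 non-dopaminergic ones. Every other tested member also varied more over the dopaminergic libraries, such as Rara (147% against 36.2%) and, least clearly, Aldh1a1 (35.2% against 29.3%). No comparison was called, with fitted differences of -0.07 (SE 0.54, adjusted p = 0.963) between the populations and between -0.11 and 0.10 across the stages on the log2 scale. Of the 5265 exonic bases of Rarb, 1793 (34.1%) are shared with Top2b, a topoisomerase gene on the other strand. Top2b stood at 27.9 to 104 CPM over the 11 dopaminergic libraries. Without strand, reads over the shared bases cannot be told apart.

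Rarg (chr15:102234938-102257517, minus strand), for RARγ, was lowest at maintenance. Food-trained dopaminergic libraries had 2.73, 8.94, 7.12 and 5.89 CPM, and maintenance libraries had 0, 1.41 and 0 CPM. All 3 maintenance libraries lay below all 4 food-trained ones, as for 4.14% of genes. The fitted difference of -3.70 on the log2 scale had an SE of 1.94 and was not called (adjusted p = 0.481 by edgeR's quasi-likelihood test). At abstinence the values were 0.569, 7.51, 2.93 and 18.7 CPM, which spanned the food-trained range and came down to the maintenance one. The difference from maintenance was 3.97 (SE 1.97, adjusted p = 0.529), and that from food training was 0.26 (adjusted p = 0.999974). Non-dopaminergic libraries had 13.2, 3.52, 16.9 and 13.0 CPM, a mean of 11.7 ± 5.72 CPM against 6.17 ± 2.61 CPM in dopaminergic nuclei of that stage (-0.91, SE 0.65, adjusted p = 0.469).

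The 3 retinoid X receptors showed no called difference in any comparison. Rxra (chr2:27676440-27762957, plus strand) measured 8.91, 22.3, 0 and 2.62 CPM after food training, 0, 8.86 and 10.0 CPM at maintenance and 10.8, 4.40, 7.96 and 7.56 CPM at abstinence. The non-dopaminergic values of 17.7, 9.29, 14.8 and 16.6 CPM lay above all dopaminergic ones but 3. The population difference was -0.77 on the log2 scale with an SE of 1.28 (adjusted p = 0.79), in a contrast where food-trained replicate 2 alone exceeded the non-dopaminergic range. Maintenance and abstinence differed from food training by -0.43 (SE 1.70) and -0.15.

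Rxrb (chr17:34031812-34038399, plus strand) was, with Rarb, the receptor most reliably present, with counts in every library. It measured 9.57, 12.6, 28.7 and 11.9 CPM after food training, 9.94, 37.0 and 7.61 CPM at maintenance, 13.0, 8.13, 12.9 and 12.5 CPM at abstinence and 19.0, 10.0, 18.4 and 16.8 CPM in non-dopaminergic nuclei. A single library stood far above the others in both food training and maintenance, the same libraries that had the highest Aldh1a1. Means of 15.7 ± 8.75 and 16.1 ± 4.13 CPM gave a population difference of -0.02 (SE 0.47, adjusted p = 0.986). The stage differences were 0.22 (SE 0.66), -0.43 and -0.65 (SE 0.66) for maintenance minus food training, abstinence minus food training and abstinence minus maintenance.

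Rxrg (chr1:167598384-167639623, plus strand), the RXR with the most restricted distribution in the brain, was present in only some dopaminergic libraries. It measured 8.98, 0, 0 and 6.68 CPM after food training, 0, 8.92 and 0.514 CPM at maintenance and 2.21, 2.74, 2.98 and 0.598 CPM at abstinence. Libraries of food training and maintenance were either below 1 CPM or above 6 CPM, and the abstinence libraries were all under 3 CPM, with replicate 4 as low as maintenance replicate 3. The non-dopaminergic libraries had 6.39, 2.60, 4.06 and 2.79 CPM. The differences were -0.01 (SE 1.74) between the populations and -0.30 (SE 2.23), -0.88 and -0.59 across the stages, none called.

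Crabp1 (chr9:54764748-54773110, plus strand), the cytoplasmic carrier, was at the limit of detection. It had 12 counts (0.246 CPM) in non-dopaminergic replicate 1 and 0 in the other 14 libraries, and it was too low to be tested.

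**Figure D2:**
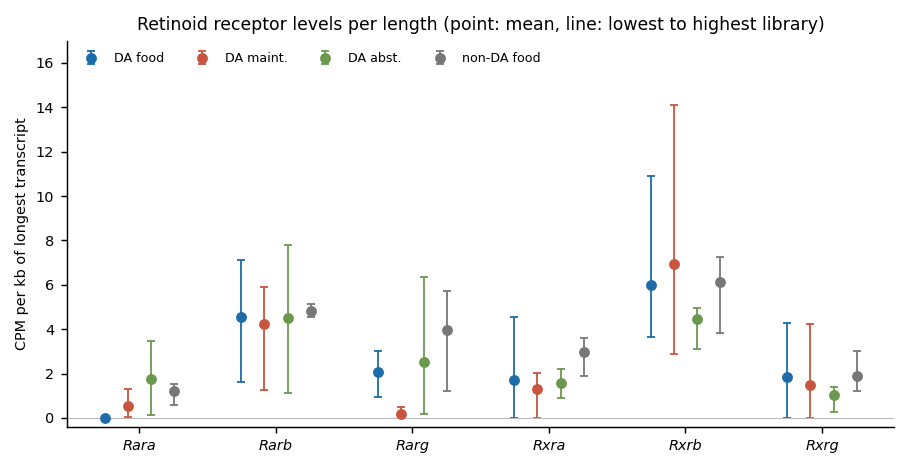
Levels of the 6 receptors in CPM per kilobase of the longest annotated transcript (linear axis), with the group mean as a point and a line from the lowest to the highest library. Rxrb and Rarb have the highest means in food-trained dopaminergic nuclei, Rara lies at 0 there, and the lines of the dopaminergic groups overlap each other for every receptor but Rara and Rarg.

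Compared per length, the order of the receptors in dopaminergic nuclei was headed by Rxrb and Rarb. Over the 11 dopaminergic libraries the mean level per kilobase of the longest annotated transcript was 82.3 ± 29.0 CPM for Aldh1a1, 5.67 ± 3.53 for Rxrb, 4.44 ± 2.68 for Rarb, 1.72 ± 1.88 for Rarg, 1.55 ± 1.27 for Rxra, 1.45 ± 1.67 for Rxrg and 0.785 ± 1.16 for Rara. Neighbours among the receptors overlapped within 1 SD. In non-dopaminergic nuclei the order was Aldh1a1 at 34.0 ± 9.95 CPM per kilobase, Rxrb at 6.12 ± 1.57, Rarb at 4.80 ± 0.272, Rarg at 3.95 ± 1.94, Rxra at 2.97 ± 0.760, Rxrg at 1.88 ± 0.826 and Rara at 1.22 ± 0.441. There too neighbouring receptors overlapped within 1 SD. The order over all 11 dopaminergic libraries did not hold within each stage: Rxrg (1.86) stood above Rxra (1.72) after food training, Rarb (4.48) above Rxrb (4.44) and Rara (1.76) above Rxra (1.57) at abstinence, and Rarg was last at maintenance, at 0.159 CPM per kilobase.

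**Figure D3:**
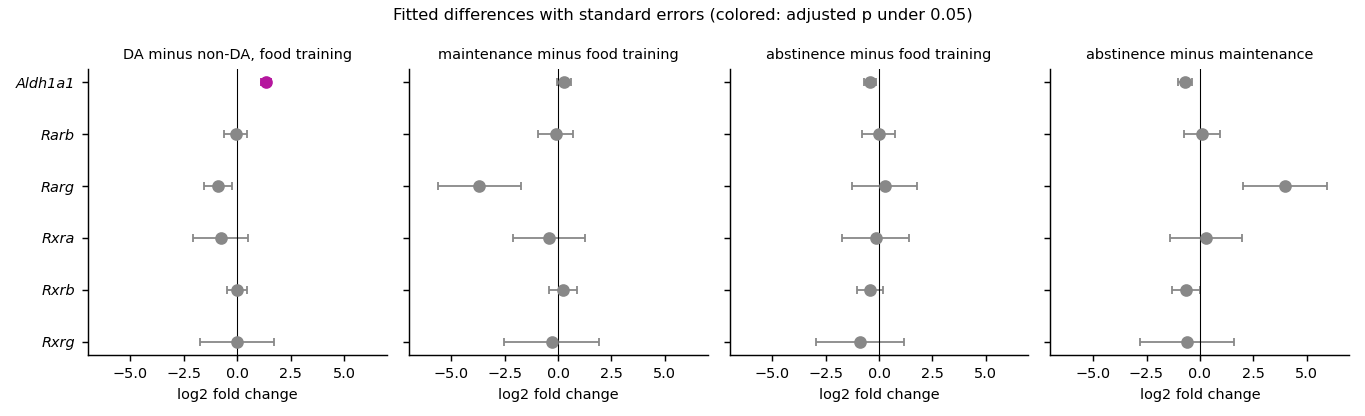
Fitted log2 fold changes with their standard errors for 6 of the 8 genes in the 4 comparisons; Rara, with a group at 0, and Crabp1, too low to test, are not drawn. Aldh1a1 between the populations, at 1.34, is the only called value, and the widest bars belong to genes with libraries at 0.

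Taking the stages as a whole, 0 of the 7 tested genes were called by edgeR's quasi-likelihood test between any pair. The share of all 19060 genes called was 0.131% for maintenance against food training, 0% for abstinence against food training and 0.178% for abstinence against maintenance. For abstinence against food training, 819 genes had an unadjusted p under 0.05, and the DESeq2 test called 140. Ranges without overlap were found at maintenance against food training for Rara and Rarg (8.45% of all genes, 4.31% of them higher and 4.14% lower), at abstinence against food training for Rara alone (3.34% of all genes, 2.4% higher), and at abstinence against maintenance for none of the 7 (12.2% of all genes).

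Libraries also differed in how counts depended on GC content, and several members are rich in GC. For genes with a mean log2 CPM above 4, the deviation from the gene's mean over the 15 libraries was regressed on transcript GC percent. Slopes, which are relative to the average library, were -0.0377 to -0.0224 in the 3 maintenance libraries and -0.0248 in non-dopaminergic replicate 2. They were -0.0167 to 0.0204 in the other dopaminergic and 0.0209 to 0.0322 in the other non-dopaminergic libraries. In non-dopaminergic replicate 2 the receptors Rara, Rarg, Rxra, Rxrb and Rxrg, with 54.6 to 61.4% GC, were at their lowest of the 4 libraries, and Aldh1a1, with 46.1% GC, was at its highest. Rarb, with 47.8% GC, lay between. From food training to maintenance the means of these 5 receptors went from 6.17 to 0.469 CPM for Rarg, from 8.45 to 6.29 CPM for Rxra, from 3.92 to 3.14 CPM for Rxrg, from 15.7 to 18.2 CPM for Rxrb and from 0 to 1.80 CPM for Rara. The means thus went down for Rarg, Rxra and Rxrg and up for Rxrb and Rara, and the part of GC content in them was not tested. The Rxrb mean at maintenance rests on replicate 2 (37.0 CPM), without which both libraries were under 10 CPM. With the GC slopes removed, the Rarg difference from food training was -3.50 on the log2 scale and was not called. A fit with a term for all 3 maintenance libraries and non-dopaminergic replicate 2 gave -1.69, but that term cannot be told apart from maintenance within dopaminergic nuclei and is set by the 1 non-dopaminergic library.

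The rest of the pathway was read from lists of 61 further genes. Between the populations 3 of the 53 tested were called higher in dopaminergic nuclei and 6 lower, beside 3.63% and 9.17% of all genes (12.8% in either direction), and their median difference was -0.42 on the log2 scale, where that of all genes was -0.21. Among genes of retinol supply, Rbp4, the plasma carrier of retinol, was higher at 37.6 against 12.7 CPM (1.58, SE 0.42, adjusted p = 0.0386). Stra6, the membrane receptor for that carrier, was at 0 in all 4 food-trained dopaminergic libraries and at least 40.9-fold lower than in non-dopaminergic ones (adjusted p = 0.0067). Crabp2, the carrier that brings retinoic acid to RARs, was at 0 in all 11 dopaminergic libraries and at 1.46, 1.44, 1.00 and 1.20 CPM in the others, at least 16.4-fold lower (adjusted p = 0.0067). Stra6, Crabp2 and Vdr, like Rara, had no counts in food-trained dopaminergic libraries and were kept for testing only through the non-dopaminergic ones. Their p-values thus add nothing to the counts, and their fold bounds cover counting error only. Of these carriers Fabp5 was present in both populations, at 16.6 ± 7.42 and 13.1 ± 2.87 CPM (0.34, SE 0.45, adjusted p = 0.728).

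Of the 10 receptors that share RXR as a partner, 1 was called higher and 3 lower, beside the 3.63% and 9.17% of all genes, and 6 were not called. Nr4a2 was higher in dopaminergic nuclei, at 109 against 17.9 CPM (2.61, SE 0.36, adjusted p = 0.00632). Nr4a1, an activity-induced relative of it, was lower at 4.31 against 21.9 CPM (-2.34, adjusted p = 0.0417). Vdr, the vitamin D receptor, was at least 14.1-fold lower (adjusted p = 0.00764), and Thra, a thyroid hormone receptor, was lower (-0.87, adjusted p = 0.0447). Of the 9 cofactors, 1 was called, a share near the 12.8% of all genes: the coactivator Ncoa3, at 55.7 against 116 CPM (-1.04, SE 0.27, adjusted p = 0.0349). Of the 12 target genes, Drd2, for the dopamine autoreceptor, was higher (3.34, adjusted p = 0.00101), and Crabp2 and Stra6 were lower, so 3 of 12 were called beside that 12.8%. None of the 9 tested retinol dehydrogenases and reductases and none of the 11 other aldehyde dehydrogenases was called.

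**Figure D4:**
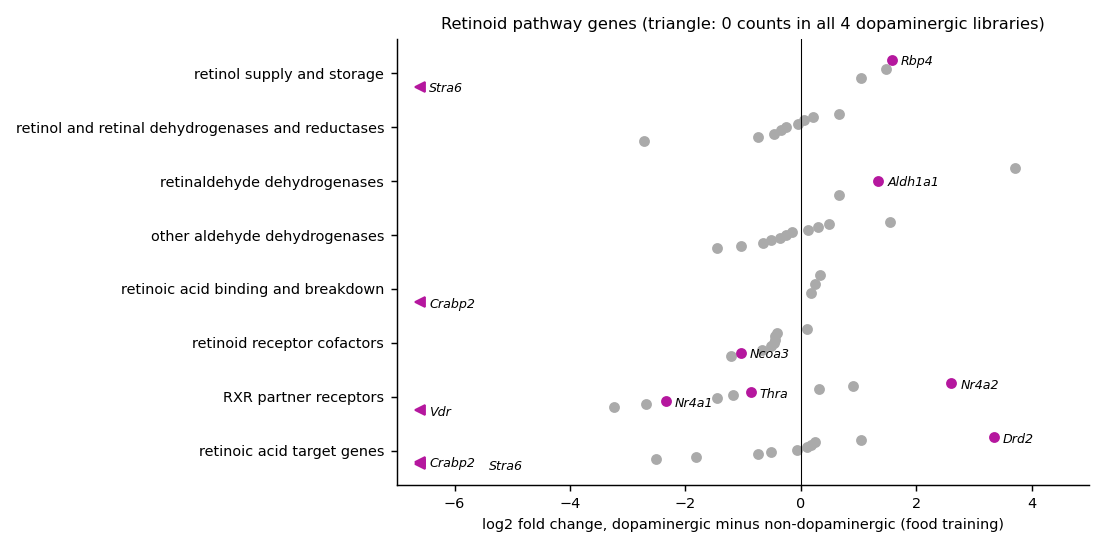
Fitted log2 fold change, dopaminergic minus non-dopaminergic nuclei after food training, of the tested genes of each pathway list (1 point per gene, Aldh1a1 and Rarb included), with genes past the threshold in purple and named. Triangles at the left edge are genes at 0 in all 4 dopaminergic libraries, whose fitted value is not a measure of size; Rbp4, Nr4a2, Drd2 and Aldh1a1 lie to the right.

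The enzymes that remove retinoic acid were read at each stage. Cyp26b1, the form found in the adult brain, measured 3.32, 4.39, 10.1 and 22.0 CPM in food-trained dopaminergic libraries, 20.2, 14.5 and 21.6 CPM at maintenance and 21.5, 17.3, 27.4 and 6.51 CPM at abstinence. Food training held both the lowest values and 1 library as high as those of maintenance, so the ranges overlapped, and the difference at maintenance was not called (0.92, SE 0.70, adjusted p = 0.736). Non-dopaminergic libraries had 8.03 to 10.2 CPM. Cyp26a1 had counts in 4 of 11 dopaminergic libraries, at 2.36 to 5.38 CPM, and Cyp26c1 in 2. Across the pathway lists 0 of 51 tested genes were called in each of the 3 stage comparisons, with median differences of 0.07, 0.16 and 0.12 on the log2 scale against -0.01, 0.04 and 0.05 for all genes.

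The genes most like each member over the 11 dopaminergic libraries were found by Pearson's correlation of log2 CPM with 11280 genes of at least 5 CPM on average. For Aldh1a1 they were Dnajc21 (0.95), Swt1 (0.92) and Mettl2 (0.90). Rara was nearest to Fbn1 (0.89), Parp16 (0.86) and Rnd3 (0.86), and Rarb to Hif1a (0.86), Cldn10 (0.82) and Eral1 (0.77). Rarg was nearest to Caprin1 (0.96), Cyth1 (0.93) and Prodh (0.93). Those nearest to Rxra were Amotl2, Coa4 and Ppp4r4, each at 0.98. For Rxrb they were Pex6 (0.90), Tcf4 (0.90) and Clmn (0.88), and for Rxrg Mre11a (0.95), Pcdhga4 (0.93) and Cacna1h (0.92). These are the highest of many correlations over few libraries that share depth, GC slope and libraries at 0, and they describe likeness in these samples only.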

How the data were processed

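Per the submitters' processing notes, reads were handled with Trim Galore 0.6.7, cutadapt 1.18, STAR 2.7.10a, StringTie 2.1.5 and DESeq2 1.38.3 on mm10/GRCm38; the annotation and whether counting used strand are not given in the sources used here. The authors deposited whole-number counts per gene for 15 libraries made with a low-input kit without molecular identifiers, so floors cover counting error only. A second deposited table, of 10 columns as analysed here (dopaminergic libraries, food-trained replicate 3 not among them), differed from the first in 0 values and was not used.

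Genes were kept by filterByExpr and scaled by TMM (edgeR 4.0.16, R 4.3.3), and groups were compared with edgeR's two-sided quasi-likelihood F-test at a Benjamini-Hochberg adjusted p under 0.05, over all genes: 8 food-trained libraries for the populations, 11 dopaminergic ones for the stages. Scripts were tested on simulated data. Loci, lengths and GC came from GENCODE (GRCm38), promoters from RefSeq. A protein table was not used here. Alternatives were other size factors, filters, the DESeq2 1.42.0 test, GC correction, a replicate block, other sets of libraries and each library left out. The text names the 8 members, pathway genes past the threshold, retinaldehyde dehydrogenases, retinoic acid binding and breakdown genes, and the 3 most alike genes per member; others named were chosen after their values were seen. Members and lists were chosen with earlier results of these data known.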

Additional observations from a re-analysis of the deposited data

Results flagged for a closer look

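In 3 of 21 groups of 4 libraries tested, 1 library lay apart from the others by a gap larger than Dixon's 95% critical value allows as a share of the group's range; chance gives about 1 in 20 such groups. Rxrb in food-trained dopaminergic replicate 3 was 28.7 CPM against 9.57 to 12.6 CPM in the others, a gap of 0.842 of the range. Rxrb in abstinence replicate 2 was 8.13 CPM against 12.5 to 13.0 CPM, a gap of 0.887. Crabp1 in non-dopaminergic replicate 1 was 0.246 CPM with the others at 0, a gap of 1.000, which 3 libraries at 0 give whatever the value of the other. Without that group, 2 of 20 were set apart.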

How the results depend on the processing

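Between the populations, the number of members called was 2 in 13 of 16 alternative settings and 1 with at least 10 counts required in every library (which leaves out Rara), with the replicate block, and with the replicate block and GC correction together. Rara lost its call under the block (adjusted p = 0.135, the highest of its 15 alternatives, which ran from 1.46e-09). With 0 counts in all 4 food-trained dopaminergic libraries its fitted direction could only be lower, so the direction is no support. The bound from the counts does not use the block and covers counting error only. Leaving out each library gave 2 to 2 members called. Aldh1a1 stayed past the threshold in 16 of 16 settings, at 1.21 to 1.54 on the log2 scale (1.24 without food-trained dopaminergic replicate 3, which is not among the 10 columns of the second table). Between the stages, Rara was called with the DESeq2 test, which gave 1 member at maintenance and 1 at abstinence against food training in place of 0; no other setting called a member, and leaving out each library gave 0 to 0. Aldh1a1 at maintenance minus food training ran from -0.45 to 0.59 and was -0.11 without maintenance replicate 2.

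Genes called ran from 775 (replicate block) to 3883 (DESeq2 test) around the reported 2534 for the populations; 719 of the 2534 were higher and 1815 lower, and under the block 413 and 362. They ran from 0 to 977 around 25 for maintenance against food training, from 0 to 140 around 0 for abstinence against food training, and from 1 to 793 around 34 for abstinence against maintenance; the cause was not tested. Same-numbered libraries of the 2 populations correlated at 0.0347 to 0.0874, under the 0.1 taken to show pairing. Of the 8 libraries, 6 correlated best with their own number, a hint of pairing from the data. The labels do not say whether same-numbered samples came from the same mice, so pairing is not settled. Over all tested members, Aldh1a1 and Rara included, the fitted value changed sign in 22 of 109 population values. All of these were of Rarb, Rxrb or Rxrg, which were not past the threshold. Among stage values it changed sign in 15 of 101, 10 of 108 and 11 of 101. At these depths 3 counts are 0.0518 to 0.108 CPM per library, the level below which a receptor could not be told from absent.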
